A study of Homo sapiens with 6 samples.

Results

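The mature human (hsa-) miRNAs of the miR-23a/27a/24-2 cluster on chromosome 19 and the miR-23b/27b/24-1 cluster on chromosome 9 were taken by name from the miRNA count table. Of the 9 arms named, 8 were among the 1000 mature miRNAs of the table, and miR-24-2-5p was not analysed here. The libraries came from HEK 293T cells, an immortalized human embryonic kidney line, with 3 of wild type cells and 3 of a double knockout of TENT3A and TENT3B (TUT4 and TUT7, written ΔTUT4/7), with no treatment given. The ΔTUT4/7 cells are a single strain that was made elsewhere, so whatever else sets the strains apart also enters every comparison. The labels do not say whether the strain is 1 clone. Levels are in CPM, counts per 1000000 counts of a library's total, which ranged from 4338558 to 7967606. Mature miRNA counts measure neither mRNA markers of the line nor TUT4 and TUT7, so the labels could not be checked with them.

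A miRNA gene is transcribed into a hairpin, which DROSHA trims to a precursor and DICER cuts into a duplex of a 5p and a 3p arm, and 1 arm is usually kept by an Argonaute protein while the other is lost. TUT4 and TUT7 add uridines to the 3′ end of precursors. A single uridine helps DICER with the group II precursors, whose 3′ overhang is short, while a long tail marks a precursor for decay. The miR-23, miR-27 and miR-24 hairpins are made from 1 transcript in each cluster and act mainly through their 3p arms. miR-27 is known for repressing PPARG in fat cell differentiation, miR-24 for repressing cell cycle genes such as E2F2, and miR-23 for repressing glutaminase.

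The 3p arms are shown with their seed, bases 2 to 8, in capitals, since the seed sets which mRNAs an arm can pair with and groups these arms across the clusters. The sequences are from RefSeq (GRCh38.p14), written 5′ to 3′.
miR-23b-3p: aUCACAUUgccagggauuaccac
miR-23a-3p: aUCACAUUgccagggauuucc
miR-27b-3p: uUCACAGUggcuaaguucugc
miR-27a-3p: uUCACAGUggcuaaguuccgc
miR-24-3p: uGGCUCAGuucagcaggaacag
The seed UCACAUU was shared by miR-23a-3p, miR-23b-3p and 1 further miRNA of the table, miR-23c. The seed UCACAGU was found in miR-27a-3p and miR-27b-3p alone, and GGCUCAG in miR-24-3p alone. The 5p arms that were counted are less alike and can be told apart by their sequence.
miR-27b-5p: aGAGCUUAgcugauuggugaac
miR-27a-5p: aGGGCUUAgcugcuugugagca
miR-24-1-5p: uGCCUACUgagcugauaucagu

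How the sequences differ sets what the counts can separate, because the authors trimmed the reads to 18 nt. From position 1 at the 5′ end, miR-23a-3p differs from miR-23b-3p by U19A, and miR-27a-3p differs from miR-27b-3p by C19U. Both differences lie just past the part that was read, shown here with the unread bases in capitals.
miR-23a-3p, 18 nt and rest: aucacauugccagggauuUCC
miR-23b-3p, 18 nt and rest: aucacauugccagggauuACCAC
miR-27a-3p, 18 nt and rest: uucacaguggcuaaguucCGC
miR-27b-3p, 18 nt and rest: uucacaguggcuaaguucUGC
A trimmed read of full 5′ length therefore fits both members of each pair, and the counts of miR-23a-3p and miR-27a-3p are shares that the authors' expectation-maximization step assigned. The 5p arms of miR-27a and miR-27b differ at 4 of their first 18 bases, and those of miR-23a and miR-23b at 7. miR-24-3p is made from both clusters with the same sequence, so its counts cannot be divided between chromosome 9 and chromosome 19.

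The chromosome 9 cluster spans 881 bases of hg38, from 95085208 to 95086088 on the plus strand, inside AOPEP, which encodes an aminopeptidase. MIR23B lies at 95085208 to 95085304 and MIR27B at 95085445 to 95085541, both in an intron of each of the 7 annotated AOPEP transcripts that cross them (GENCODE release 44). MIR24-1, at 95086021 to 95086088, lies in an exon of 1 of these transcripts. The chromosome 19 cluster spans 373 bases, from 13836287 to 13836659 on the minus strand. Each of its hairpins lies in an exon of the lncRNA MIR23AHG. These hairpins are MIR23A at 13836587 to 13836659, MIR27A at 13836440 to 13836517 and MIR24-2 at 13836287 to 13836359. The hairpins MIR23B and MIR27B are printed with both arms in capitals, since the comparison of arms turns on them.
MIR23B: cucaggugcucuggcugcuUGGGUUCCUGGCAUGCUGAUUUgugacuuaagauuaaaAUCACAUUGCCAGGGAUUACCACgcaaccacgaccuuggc
MIR27B: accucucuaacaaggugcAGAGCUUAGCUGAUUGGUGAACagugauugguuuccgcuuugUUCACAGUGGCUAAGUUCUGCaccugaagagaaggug
In MIR23B 16 bases separate the arms, and in MIR27B 20 bases.

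**Figure D1:**
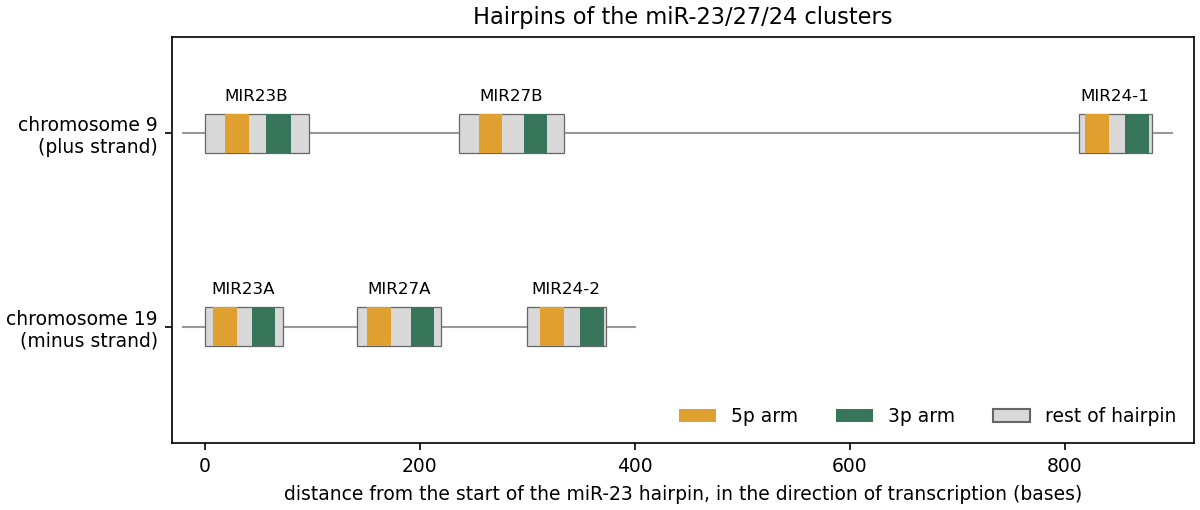
Position of the 6 hairpins along each cluster, as distance in bases from the start of the miR-23 hairpin, with the 5p and 3p arms coloured. The clusters have the same order of hairpins, and the chromosome 9 cluster, at 881 bases, is longer than the chromosome 19 cluster, at 373 bases.

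The 3p arms were lower in ΔTUT4/7 cells and the measured 5p arms were not found to change. The 8 arms in the table took 0.833% to 0.890% of all counts in ΔTUT4/7 and 1.44% to 2.11% in wild type cells. Of the 7 arms with a count above 7 in some library, which entered the quasi-likelihood test of edgeR, 5 were lower with a Benjamini-Hochberg adjusted p under 0.05, and these were all 5 of the 3p arms. Over all 826 miRNAs tested, 21.9% were lower and 23.2% higher by this rule. With a limit of 2-fold added, 3 of the 7 arms were lower and 0 higher, against 13.6% lower and 16.5% higher over all tested. The median log2 fold change was -0.78 over the 7 arms and 0.013 over all tested miRNAs. The libraries of the strains did not overlap for the 5 3p arms, a separation with ΔTUT4/7 lower that was found for 29.5% of all tested miRNAs (58.4% in either direction). Since miR-23a-3p and miR-23b-3p share their reads, as do miR-27a-3p and miR-27b-3p, the 5 arms stand for 3 separately read sequences.

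hsa-miR-24-3p, the arm that both clusters make, had the largest fitted decrease, with a 95% interval of -1.69 to -1.04 that overlaps those of all 4 other 3p arms. It had 1556, 1580.2 and 1636 CPM in ΔTUT4/7 replicates 1, 2 and 3, and 3547, 3785 and 4957 CPM in wild type replicates 1, 2 and 3. The ΔTUT4/7 libraries lay close together, while wild type replicate 3 stood above the other wild type libraries. On average it had 1591 ± 40.7 CPM against 4097 ± 755 (SD, n = 3 each) and was 2.58-fold lower, with a fitted log2 value of -1.36 (SE 0.15, edgeR adjusted p = 1.54e-05). Without wild type replicate 3 the log2 fold change was -1.20.

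hsa-miR-23b-3p, the leading arm of its hairpin, had 1657, 1711 and 1680.2 CPM in ΔTUT4/7 replicates 1, 2 and 3. In wild type replicates 1, 2 and 3 it had 3541, 3435 and 3990.5 CPM. Both strains varied little, and every wild type library was far above every ΔTUT4/7 library. On average it had 1683 ± 26.9 CPM against 3655 ± 295 (SD, n = 3 each) and was 2.17-fold lower, with a fitted log2 value of -1.12 (SE 0.12, edgeR adjusted p = 1.85e-05). Scaled to totals that held neither let-7 nor miR-98, miR-23b-3p fell by less than 2-fold (-0.90, edgeR adjusted p = 1.16e-04). That scaling moved the median of all tested miRNAs from 0.013 to 0.23.

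hsa-miR-27b-3p was the most abundant arm in every library. It had 5598, 5435 and 4921 CPM in ΔTUT4/7 replicates 1, 2 and 3, and 7199.9, 8167 and 11974 CPM in wild type replicates 1, 2 and 3. Wild type replicate 3 was 1.56 times the mean of the other wild type libraries. On average it had 5318 ± 353 CPM against 9114 ± 2524 (SD, n = 3 each) and was 1.71-fold lower, with a fitted log2 value of -0.78 (SE 0.17, edgeR adjusted p = 0.00315). Without wild type replicate 3 it was -0.53 (edgeR adjusted p = 0.00183), so the decrease was smaller but still passed the test.

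The 3p arms assigned to chromosome 19 were far less abundant. hsa-miR-23a-3p had 7.29, 7.90 and 10.0 CPM in ΔTUT4/7 replicates 1, 2 and 3, and 19.7, 18.3 and 24.7 CPM in wild type replicates 1, 2 and 3. It was 2.48-fold lower in ΔTUT4/7 cells (-1.31 on the log2 scale, SE 0.23, edgeR adjusted p = 8.05e-04). hsa-miR-27a-3p had 18.7, 18.7 and 20.5 CPM in the ΔTUT4/7 replicates and 24.9, 28.2 and 40.1 CPM in the wild type replicates, in the same order. Every ΔTUT4/7 library was below every wild type library for both arms. The decrease of miR-27a-3p was 1.61-fold (-0.68 on the log2 scale, SE 0.22, edgeR adjusted p = 0.0242). It no longer passed the test without ΔTUT4/7 replicate 1 or 2 (edgeR adjusted p = 0.0698 and 0.0851) or when let-7 and miR-98 were kept out of the totals (edgeR adjusted p = 0.105). When arms that share their first 18 nt were summed, the miR-23a/b-3p sum had a log2 fold change of -1.12 (edgeR adjusted p = 1.90e-05) and the miR-27a/b-3p sum one of -0.78 (edgeR adjusted p = 0.00322).

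The tested 5p arms miR-27a-5p and miR-27b-5p were not found to change. Their 95% intervals overlap those of miR-27a-3p (-1.17 to -0.20) and miR-27b-3p (-1.15 to -0.40), so these fits do not separate the arms. hsa-miR-27a-5p had 38.6, 33.9 and 37.1 CPM in ΔTUT4/7 replicates 1, 2 and 3, and 39.7, 40.8 and 29.96 CPM in wild type replicates 1, 2 and 3. The strains overlapped, and the lowest value of all was that of wild type replicate 3. The log2 fold change was -0.014 with a 95% interval from -0.44 to 0.41 (edgeR adjusted p = 0.958), so a decrease to 0.739-fold or an increase to 1.33-fold is within its error. hsa-miR-27b-5p had 24.04, 30.1 and 23.2 CPM in the ΔTUT4/7 replicates and 21.1, 17.8 and 44.02 CPM in the wild type replicates, in the same order. Its wild type libraries were widely spread, with replicate 3 at 2.26 times the mean of the others. The log2 fold change was -0.084 with a 95% interval from -0.76 to 0.59 (edgeR adjusted p = 0.845), and 0.42 without wild type replicate 3 (edgeR adjusted p = 0.104). hsa-miR-24-1-5p was not tested, with 1, 2 and 2 counts in ΔTUT4/7 and 2, 3 and 1 in wild type replicates 1, 2 and 3. The ratio of its pooled rates was 0.956 with an exact 95% counting interval of 0.231 to 3.76, so a change within that range was not detectable at this depth. Intervals from counts cover counting error only.

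**Figure D2:**
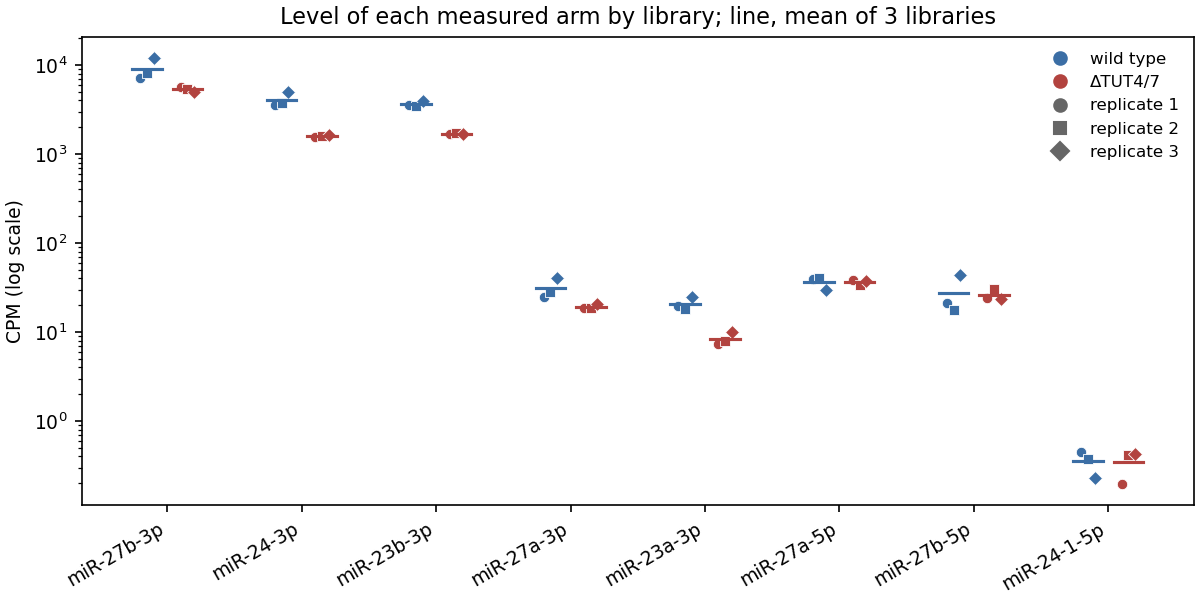
CPM of the 8 arms in each of the 6 libraries on a log axis, with a line at the mean of each strain. The 3p arms of every hairpin are lower in all ΔTUT4/7 libraries, while the libraries of the strains overlap for miR-27a-5p, miR-27b-5p and miR-24-1-5p.

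In wild type cells the order of the mean levels was miR-27b-3p, miR-24-3p, miR-23b-3p, miR-27a-5p, miR-27a-3p, miR-27b-5p, miR-23a-3p and miR-24-1-5p. Mature miRNAs have nearly the same length, so the levels were not scaled to it. How evenly the libraries captured different sequences was not tested, so the order is one of counts. miR-27b-3p ranked 26 of 1000 miRNAs, miR-24-3p 41 and miR-23b-3p 45, and in ΔTUT4/7 cells they ranked 32, 63 and 61. The wild type ranges of miR-24-3p and miR-23b-3p overlapped, as did those of each neighbouring pair from miR-27a-5p to miR-23a-3p. In ΔTUT4/7 cells miR-23b-3p was above miR-24-3p in each library, and miR-24-3p was the higher of them in each wild type library, though by very little in replicate 1.

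The other products of the hairpins fall outside the named arms and were read to compare the arms. miR-23b-5p had 22.1, 18.9 and 27.9 CPM in ΔTUT4/7 replicates 1, 2 and 3, and 20.6, 25.2 and 34.8 CPM in wild type replicates 1, 2 and 3, with a log2 fold change of -0.22 (95% interval -0.75 to 0.30, edgeR adjusted p = 0.470). miR-23a-5p had 2 to 10 counts in each library, 19 in all ΔTUT4/7 and 22 in all wild type libraries, with a log2 fold change of -0.042 (95% interval -1.35 to 1.27, edgeR adjusted p = 0.958). Neither 5p arm was found to change, and the interval of miR-23a-5p is too wide to exclude a 2-fold decrease. From the opposite strand of MIR24-1, miR-3074-3p was counted 66 times over all ΔTUT4/7 and 127 times over all wild type libraries, a log2 fold change of -0.73 with an adjusted p close to the threshold (edgeR adjusted p = 0.0513). It passed under 5 of 15 alternatives, and the adjusted p ranged over them from 0.0260 without ΔTUT4/7 replicate 3 to 0.181 without ΔTUT4/7 replicate 2 (both edgeR). miR-3074-5p was not analysed here.

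**Figure D3:**
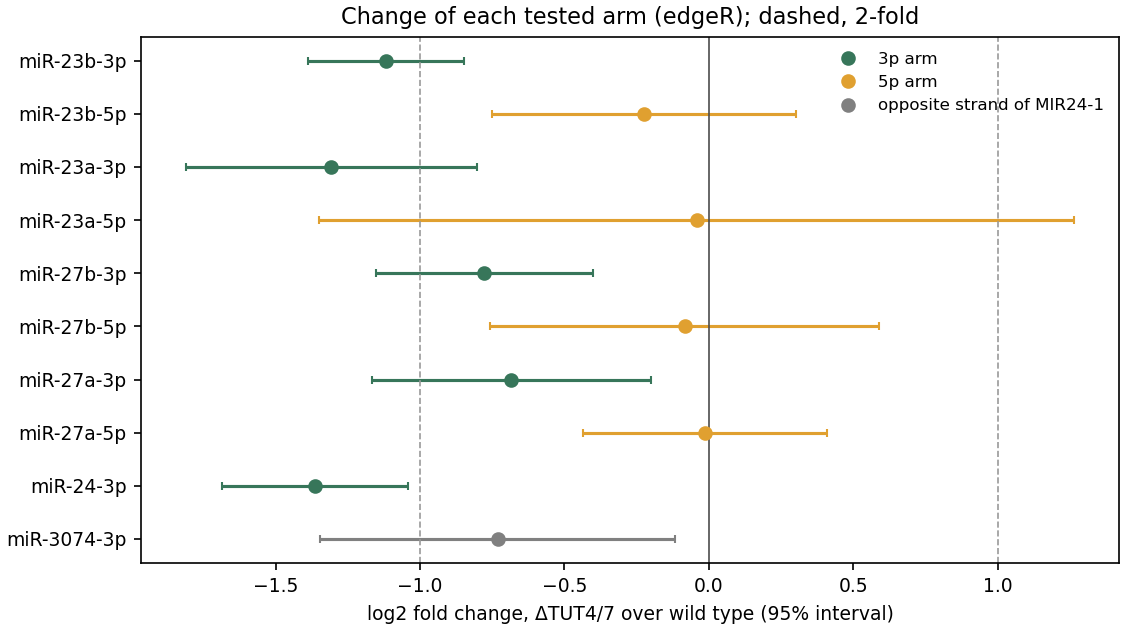
Log2 fold change of each tested arm, ΔTUT4/7 over wild type, with its 95% interval from the edgeR fit, and dashed lines at 2-fold. The intervals of the 5 3p arms of the clusters (green) lie below 0, as does that of miR-3074-3p from the opposite strand (grey), whose adjusted p is above 0.05, and those of the 4 5p arms (orange) include 0.

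Within a library the ratio of a hairpin's arms does not depend on the scaling. For miR-23b the counts of the 3p arm were 75.1, 90.4 and 60.1 times those of the 5p arm in ΔTUT4/7 replicates 1, 2 and 3, and 171.7, 136.2 and 114.7 times in wild type replicates 1, 2 and 3. For miR-27b the ratio was 232.8, 180.3 and 211.7 in the ΔTUT4/7 replicates and 341.6, 458.2 and 272.0 in the wild type replicates. For miR-27a, whose 3p count is an assigned share of reads that also fit miR-27b-3p, it was 0.485, 0.552 and 0.552 in the ΔTUT4/7 and 0.629, 0.692 and 1.34 in the wild type replicates. In these 3 hairpins every ΔTUT4/7 library was below every wild type library. For miR-23a the ratio was 18.5, 5.43 and 4.70 against 14.5, 18.2 and 13.4, so ΔTUT4/7 replicate 1, with only 2 counts of the 5p arm, lay above the wild type libraries.

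On the log2 scale, with 0.5 added to each count, the 3p to 5p ratio differed between ΔTUT4/7 and wild type by -0.91 for miR-23b, -0.75 for miR-27b, -1.02 for miR-23a and -0.66 for miR-27a. An exact two-sided permutation test of 3 against 3 libraries cannot give a p below 0.1, and it gave 0.1 for miR-23b, miR-27b and miR-27a and 0.3 for miR-23a (0.22 and 0.412 after Benjamini-Hochberg adjustment over 11 ratios). None therefore reached significance in this design. Without wild type replicate 3 the difference for miR-27a was -0.32, and without ΔTUT4/7 replicate 1 that for miR-23a was -1.57. A lower ratio was also common among the 200 hairpins with both arms tested, which include these 4: 19% had ratios that were lower in ΔTUT4/7 with no overlap, 15% had ratios that were higher, and 113 had a difference below 0. The median difference was -0.088 and the lower quartile -0.63. All 4 hairpins lay below that quartile, at places 26 (miR-23a), 29 (miR-23b), 41 (miR-27b) and 47 (miR-27a) from the lowest of the 200. The 4 places rest on 2 separately read 3p sequences, and those of miR-23a and miR-27a on assigned counts, so they are not 4 separate observations.

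**Figure D4:**
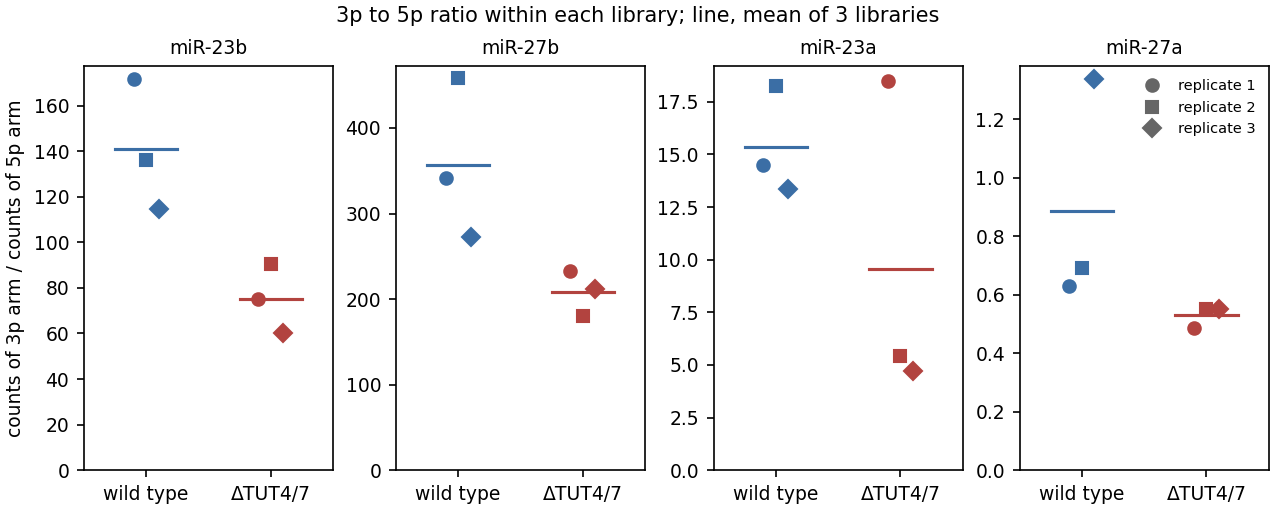
Counts of the 3p arm divided by counts of the 5p arm in each library for 4 hairpins, on linear axes from 0, with a line at the mean of each strain. The ratio is lower in ΔTUT4/7 cells without overlap for miR-23b, miR-27b and miR-27a, while ΔTUT4/7 replicate 1 of miR-23a, at 18.5, is above the wild type libraries.

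**Figure D5:**
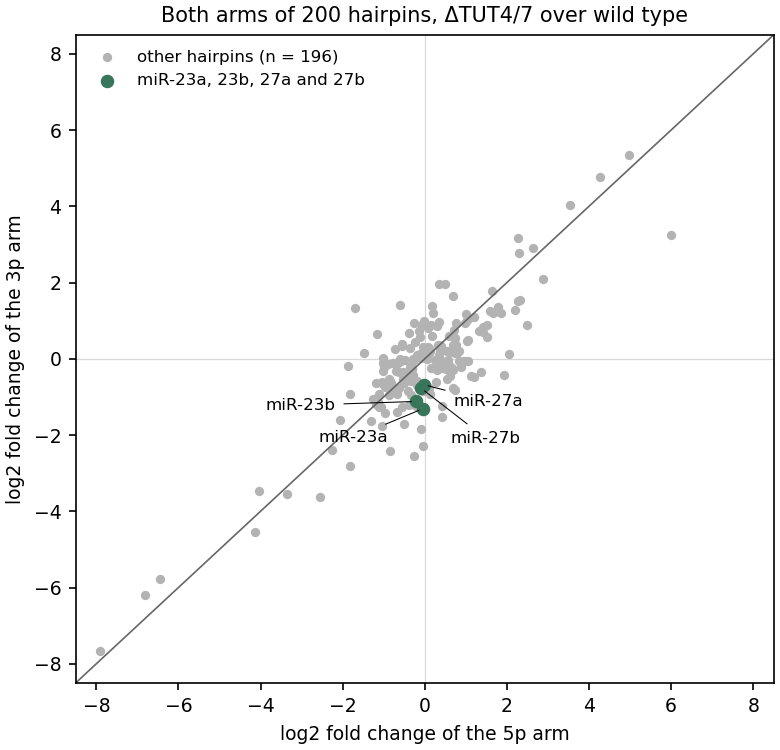
Log2 fold change of the 3p arm against that of the 5p arm for 200 hairpins, with the line of equal change. The 4 hairpins of the miR-23 and miR-27 families lie below the line, with the 5p arm near 0 and the 3p arm between -0.68 and -1.31, among other hairpins that lie as far below it.

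The arms that were read apart can be compared between the clusters, each with its counterpart. The order differed between miR-27 and miR-23, so these ratios describe the arms and do not measure the output of a cluster. The counts of miR-27a-5p, from chromosome 19, were 1.61, 1.12 and 1.60 times those of miR-27b-5p, from chromosome 9, in the ΔTUT4/7 replicates and 1.88, 2.29 and 0.681 times in the wild type replicates. Apart from wild type replicate 3, the chromosome 19 arm was the more abundant, and the strains overlapped (exact permutation test, p = 1.0). For miR-23 the order was the other way, with miR-23a-5p at 1.79% to 7.69% of miR-23b-5p over the 6 libraries, also with overlapping strains (exact permutation test, p = 1.0).

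The assigned 3p arms gave another ratio for miR-27. The counts of miR-27a-3p were 0.334% to 0.416% of those of miR-27b-3p over all 6 libraries, and in the wild type libraries only 0.335% to 0.346%. Those of miR-23a-3p were 0.440% to 0.618% of miR-23b-3p. The share of miR-27a in the 3p arms was thus nearly constant where its share in the 5p arms varied most, between wild type libraries. As the assigned arms share their first 18 nt, how the assignment contributes to their levels was not tested, and the changes of miR-23a-3p and miR-27a-3p are not separate evidence for the chromosome 19 cluster. Neither ratio of 3p arms differed between the strains beyond its spread (exact permutation test, p = 0.3 for miR-23 and 0.8 for miR-27).

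The abundant 3p arms were also compared with each other within libraries. The ratio of miR-24-3p to miR-27b-3p was 0.278, 0.291 and 0.332 in ΔTUT4/7 replicates 1, 2 and 3, and 0.493, 0.463 and 0.414 in wild type replicates 1, 2 and 3, a difference of -0.60 on the log2 scale. The ratio of miR-24-3p to miR-23b-3p was 0.939, 0.924 and 0.973 against 1.00, 1.10 and 1.24, a difference of -0.23. In both ratios the strains did not overlap, with the smallest p that the exact permutation test allows, 0.1 (0.22 adjusted over 11 ratios). The ratio of miR-23b-3p to miR-27b-3p overlapped, with 0.296, 0.315 and 0.341 against 0.492, 0.421 and 0.333 (difference -0.37, exact permutation test, p = 0.2). The ratios of miR-24-3p to the other 2 arms were thus lower in every ΔTUT4/7 library, in a design that cannot pass the threshold.

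The study's list of group II hairpins, taken from MirGeneDB, holds MIR23B, MIR24-1 and MIR24-2 but not MIR23A, MIR27A or MIR27B. The group II 3p arms miR-24-3p and miR-23b-3p were lower by 2.58-fold and 2.17-fold. The 5p arm of MIR23B, miR-23b-5p, was not found to change (log2 fold change -0.22, edgeR adjusted p = 0.470). Nor were the tested 5p arms of hairpins outside the list. Of the arms outside the list, miR-23a-3p was lower by 2.48-fold, miR-27b-3p by 1.71-fold and miR-27a-3p by 1.61-fold. Only miR-23a-3p lay within the range of the list's arms. Its counts are an assigned share of reads that also fit miR-23b-3p, so it cannot stand for a hairpin outside the list. The decreases of miR-27b-3p and miR-27a-3p, which share their reads, were smaller than those of both list arms. On the log2 scale the fitted interval of miR-27b-3p (-1.15 to -0.40) overlapped those of miR-23b-3p (-1.39 to -0.85) and miR-24-3p (-1.69 to -1.04). A difference between list and other arms was not tested. Of 58 tested arms that match the 45 hairpins of the list, 9 were lower and 20 higher by at least 2-fold, with a median log2 fold change of 0.25, against 13.6% lower, 16.5% higher and a median of 0.013 over all 826 tested miRNAs. The direction of miR-23b-3p and miR-24-3p was opposite to that median, and the list was chosen by the study.

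Other abundant miRNAs had similar patterns over the 6 libraries. Among 187 other miRNAs of at least 100 CPM on average, the one most like miR-23b-3p was miR-196a-5p, with a root-mean-square difference of 0.070 between centred log2(CPM + 1) values, followed by miR-26b-5p (0.091) and miR-30a-3p (0.15). The nearest to miR-27b-3p were miR-130b-3p (0.095), miR-421 (0.12) and miR-30e-3p (0.14). The nearest to miR-24-3p were miR-30a-3p (0.079), miR-196a-5p (0.12) and miR-210-3p (0.14). These values describe likeness in 6 libraries that differ mainly by strain.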

How the data were processed

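QIAseq miRNA libraries were made from 3 total RNA samples each of wild type and ΔTUT4/7 HEK 293T cells. The mature miRNAs counted are those of miRBase 22. Per the authors' methods and the labels, only 18 nt of a read were kept, and the analysis ran in Partek Flow 10.0.22, with Bowtie 1.0.0 as aligner and hg38 as genome. The deposited values are estimated counts, made by the authors by expectation-maximization and written as whole numbers, with the 3 values of at least 1000000 given to 3 digits. How molecular identifiers were used is not given in these sources. A second file holds the authors' own comparison (p-values, ratios and strain means) and was not used.

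Libraries were assigned from their labels. Counts of miRNAs with a highest count above 7 (the study's limit) were tested with edgeR 4.0.16 (estimateDisp, glmQLFit, glmQLFTest; R 4.3.3), with column totals as library sizes, normalization factors of 1 and Benjamini-Hochberg adjustment over 826 miRNAs. Standard errors and 95% intervals were computed from the quasi-likelihood F. The labels call the samples biological replicates without naming separate cultures, so p-values measure the spread between these samples, which may be technical. Ratios within libraries were compared with exact permutation tests (scipy 1.17.1). Alternatives were TMM and RLE factors, DESeq2 1.42.0, limma 3.58.1, totals without let-7 and miR-98, other filters, a replicate block, sums over shared 18 nt and each library left out. On simulated counts of 770 miRNAs, edgeR recovered 197 of 200 changed 4-fold, with 10 false calls. The changed miRNAs were drawn from those with a mean above 10 counts. Recovery of smaller changes, such as those of the arms here, was not tested. Sequences came from RefSeq and, for the 18 nt comparison, from hg38 at the deposited coordinates, whose stop lies 1 base past the end. The 897 names found in RefSeq had the same sequence in hg38. The named miRNAs are every member arm, the other arms of the 6 hairpins and of MIR3074 on the opposite strand, and the 3 most alike to each abundant arm. The members and lists were chosen with earlier results of these data known.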

Additional observations from a re-analysis of the deposited data

How the results depend on the processing

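Over 15 alternatives, 3 arms were lower by at least 2-fold in all but 2. Without let-7 and miR-98 in the totals miR-23b-3p was under the limit (-0.90), which left 2 arms, and sums over shared 18 nt also gave 2, since miR-23a-3p and miR-23b-3p are then 1 value. No arm was higher by 2-fold in any. The 5 3p arms were lower under every alternative. The 5p arms miR-27b-5p, miR-27a-5p and miR-23a-5p changed sign without passing the 2-fold rule. When the totals held neither let-7 nor miR-98, the log2 fold changes of miR-27b-5p, miR-27a-5p and miR-23a-5p were 0.14, 0.21 and 0.18. With limma-trend miR-27b-5p was at 0.0052 and miR-27a-5p at 0.00071, and with TMM factors miR-27a-5p was at 0.018. With 1 library left out, miR-27b-5p ranged from -0.33 to 0.42, miR-27a-5p from -0.14 to 0.070 and miR-23a-5p from -0.55 to 0.40. In the same fits the differences of log2 ratios ranged from -0.39 to 0.55 for miR-23a-5p/miR-23b-5p, from -0.54 to 0.33 for miR-27a-5p/miR-27b-5p and from -0.0093 to 0.15 for miR-27a-3p/miR-27b-3p. The cause of these changes was not tested. All other ratio differences kept their sign. Over all miRNAs, 81 to 120 were lower and 108 to 183 higher by at least 2-fold.

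Replicates with the same number did not deviate together (correlations of -0.13, -0.10 and -0.17). The correlations run over the tested miRNAs, as deviations from each strain's mean of 3 libraries. With so few same-numbered pairs they cannot tell whether same-numbered samples were handled together. With the replicate number as a block, 102 miRNAs were lower and 131 higher, miR-27b-5p was at 0.010, and the calls of the arms did not change. Filtering with filterByExpr gave no value for miR-23a-5p. The depth limits miR-24-1-5p and miR-23a-5p most, with at most 3 and 10 counts in a library.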
